A study of Homo sapiens with 96 samples.

Results

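The genes described here are 53 DNA repair genes, listed by gene symbol, and every alternative splicing event listed under those symbols. At least 1 event was listed for 52 of the 53 genes, and none for ERCC5, the nuclease that cuts 3′ of a bulky lesion. Together these genes held 2401 of the 239131 events listed in the series, which covers 14359 genes. No measured value enters the rule, but the list was drawn up with earlier results of these data known.

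The data are poly(A)-RNA seq of A549, a long-established human cell line that was derived from a lung adenocarcinoma. The deposited splicing tables cover 30 libraries, which form 10 groups of 3. Control cells received 0.01% DMSO for 4 or 7 days. The other groups received 1 µM GSK591, an inhibitor of PRMT5, or 1 µM MS023, which acts on Type I PRMTs, each over 2, 4, and 7 days, or both at 1 µM each (co-treatment) for 2 or 4 days. Both inhibitors are small molecules that block enzymes which methylate arginine, and all groups were of the same cell line, so the results hold for 1 line. The 2-day inhibitor libraries were compared with the DMSO libraries of 4 days, as the tables set them, so that at 2 days the inhibitor and the time in culture cannot be told apart. The DMSO libraries of 2 days that the labels list in the actinomycin D experiment are not in these tables and were not analysed here. The same 3 DMSO libraries of 4 days served the 2-day and 4-day comparisons of every inhibitor, and those of 7 days were taken from the labels as the control at 7 days. Libraries of a group are called a, b, and c by their order in the tables. The labels number the replicates, but do not say whether they came from separate cultures, and the p-values then measure the spread between these libraries, which may be technical. Retained introns (RI) drew 3118222 to 5224249 reads in each library, and a tested intron of a repair gene had between 10 and 2957 reads in a library, with a median of 158. Pairs of libraries of the same group differed by 1.88 to 4.72 times the sampling variance, so no library was a copy of another.

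DNA repair is a set of separate pathways. Base excision repair removes damaged single bases and mends nicks, nucleotide excision repair cuts out bulky lesions, mismatch repair corrects copying errors, and the Fanconi anaemia pathway opens crosslinks between strands. Double-strand breaks are mended by homologous recombination, which copies an intact sister strand, or by end joining, while the kinases of damage signalling halt the cell cycle. Many transcripts of these genes are long and rich in exons, and poly(A) RNA that keeps an intron can remain in the nucleus or be degraded if the intron carries a stop codon in frame.

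For each event the inclusion level Ψ was computed from reads counted for both forms and divided by their effective lengths. It is the share, among both forms of the event, of the form that keeps the intron or the exon. It is not a share of all transcripts, as other splice junctions do not enter its skipping count. Where introns overlap, the same reads within them can count for several events. ΔΨ is the mean Ψ of an inhibitor group minus that of DMSO, on a scale from 0 to 1. A Ψ averages over all cells of a library, so a change in every cell and a larger change in some of them cannot be told apart. An event was called at an adjusted p under 0.05, from a quasi-binomial model of both counts across libraries with Benjamini-Hochberg adjustment over all events of the same type in the comparison. This is the adjusted p given throughout. The count for inclusion takes in reads that lie within the intron or exon as well as those across its ends.

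Of 41 distinct introns listed, 39 introns in 20 genes had enough reads for the test. Of these, 20 in 13 genes were called in at least 1 of the 8 comparisons with DMSO. Shares over all RI are given below for each comparison, and not for the 8 together. The 39 introns lay in 26 separate stretches of genome, and 20 of them shared a stretch with another, so that overlapping introns of MUTYH, POLM, RAD52, MUS81, APEX1, and ERCC3 are not independent. They were between 1 and 3525 bases long with a median of 177, and 30 were no longer than 300 bases. The 1-base entry, in RECQL4, is not an intron by its length. GRCh37 annotation placed 29 of the 39 within coding sequence, and 24 of those 29 carried a stop codon in frame. The 14 introns of 10 genes that were called higher with GSK591 or co-treatment had a median length of 184.5 bases and a median GC content of 52.4%, against 164 bases and 60.8% in the other 25. These medians count overlapping introns separately. The other 25 include 4 from 1 stretch of POLM, 3 from 1 stretch of RAD52, and the 1-base entry. Length and GC content over all RI are not given here, so the medians do not set the groups apart.

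The introns printed here are among those called higher with GSK591 at 2, 4, and 7 days, together with the MUS81 intron that went the other way. The ERCC2 change was smaller than those of several introns not printed. They are read from the GRCh37 genome on the strand of the gene, 5′ to 3′, with the first 6 and the last 3 bases of the intron in capitals, where the spliceosome recognises its ends. The POLD1 intron is 569 bases long (chr19:50919084-50919652, plus strand, intron 22 of 26), so its first and last 60 bases are given. The ERCC3 intron has 187 bases (chr2:128047078-128047264, minus strand, intron 5 of 14), the ERCC2 intron 77 (chr19:45872251-45872327, minus strand, intron 3 of 22), the EME2 intron 182 (chr16:1825134-1825315, plus strand, intron 4 of 7), and the MUS81 intron 201 (chr11:65632287-65632487, plus strand, intron 12 of 15). All lie within coding sequence of a protein-coding transcript.
POLD1 intron, first 60 bases: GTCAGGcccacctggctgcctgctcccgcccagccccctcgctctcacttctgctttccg
POLD1 intron, last 60 bases: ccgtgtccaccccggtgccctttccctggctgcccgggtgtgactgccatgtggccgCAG
ERCC3 intron: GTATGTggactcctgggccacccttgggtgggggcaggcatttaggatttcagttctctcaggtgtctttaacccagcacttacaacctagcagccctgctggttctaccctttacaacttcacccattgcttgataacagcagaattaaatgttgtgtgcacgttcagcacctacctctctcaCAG
ERCC2 intron: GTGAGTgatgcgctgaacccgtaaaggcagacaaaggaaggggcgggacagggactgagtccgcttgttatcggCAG
EME2 intron: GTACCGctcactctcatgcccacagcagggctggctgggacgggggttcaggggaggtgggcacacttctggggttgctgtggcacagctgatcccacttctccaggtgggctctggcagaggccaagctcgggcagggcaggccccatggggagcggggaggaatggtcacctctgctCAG
MUS81 intron: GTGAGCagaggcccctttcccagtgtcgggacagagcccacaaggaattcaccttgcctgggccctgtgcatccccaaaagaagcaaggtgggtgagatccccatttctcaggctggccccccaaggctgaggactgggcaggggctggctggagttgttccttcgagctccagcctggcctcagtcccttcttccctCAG
The POLD1 intron begins with GTCAGG and the ERCC2 intron with GTGAGT. Read in the frame of the exon before it, the first stop codon stands at base 112 of the POLD1 intron, 43 of the ERCC3 intron, 22 of the ERCC2 intron, and 94 of the MUS81 intron. No stop codon was in frame within the EME2 intron.

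Between 8 and 12 introns of DNA repair genes were called higher with GSK591 or co-treatment, led by those of POLD1 and MUTYH, at shares no higher than over all RI. With GSK591, 9 of 39 introns were called higher at 2 days, 9 of 39 at 4 days, and 8 of 39 at 7 days, against 24%, 33.9%, and 21.8% of all RI in the tables. With co-treatment 10 of 39 were called higher at 2 days and 12 of 38 at 4 days, against 29.7% and 33.6% of all RI. With limma on log2 odds 3, 8, and 7 introns were called in either direction with GSK591 at 2, 4, and 7 days, against 12, 12, and 8, and 6 and 9 with co-treatment, against 11 and 14. Those called by both tests were 3, 8, and 4 with GSK591 and 6 and 9 with co-treatment. The introns called lower were 3, 3, and 0 with GSK591 at 2, 4, and 7 days (2.38%, 4.32%, and 6.1% of all RI) and 1 and 2 with co-treatment at 2 and 4 days (5.03% and 6.1%). With MS023 the introns called higher were 0, 0, and 1 at 2, 4, and 7 days (1.44%, 1.57%, and 1.93% of all RI), and those called lower were 0, 2, and 3 (4.21%, 5.6%, and 9.49%). In the MS023 comparison at 2 days, where 0 introns were called, 10 had an unadjusted p under 0.05 in the quasi-binomial model and 6 in limma on log2 odds, which also called 0. The median ΔΨ over the tested introns of repair genes was 0.011, 0.007, and 0.009 with GSK591 at 2, 4, and 7 days and -0.018, -0.02, and -0.009 with MS023, against 0.015, 0.02, and 0.008 and -0.003, -0.004, and -0.006 over all RI. Leaving out DMSO a, DMSO c, or GSK591 c took the GSK591 count at 7 days from 8 to 5. The MS023 counts moved between 0 and 2 at 2 days (2 without DMSO a, 1 without DMSO c), from 2 to 0 at 4 days without DMSO a, MS023 b, or MS023 c and to 1 without DMSO b, and from 4 to 2 at 7 days without MS023 a or MS023 b.

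**Figure D1:**
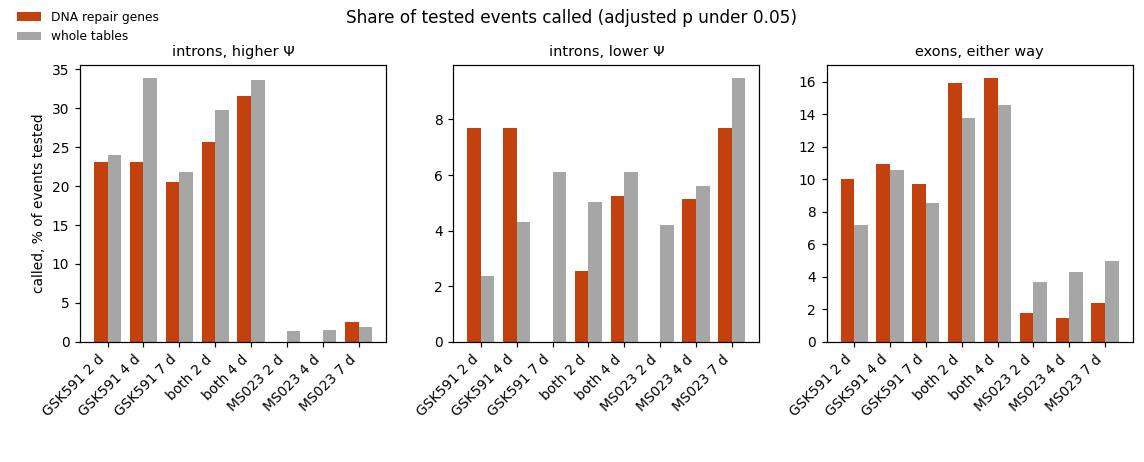
Percentage of tested events called, in DNA repair genes (orange) and in the whole tables (grey), for each inhibitor group against DMSO. The left and middle plots give introns called higher and lower, the right plot exons called either way, and each vertical axis has its own range. Introns called higher were 9 of 39 with GSK591 at 4 days and 0 of 39 with MS023 at 4 days.

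**Figure D2:**
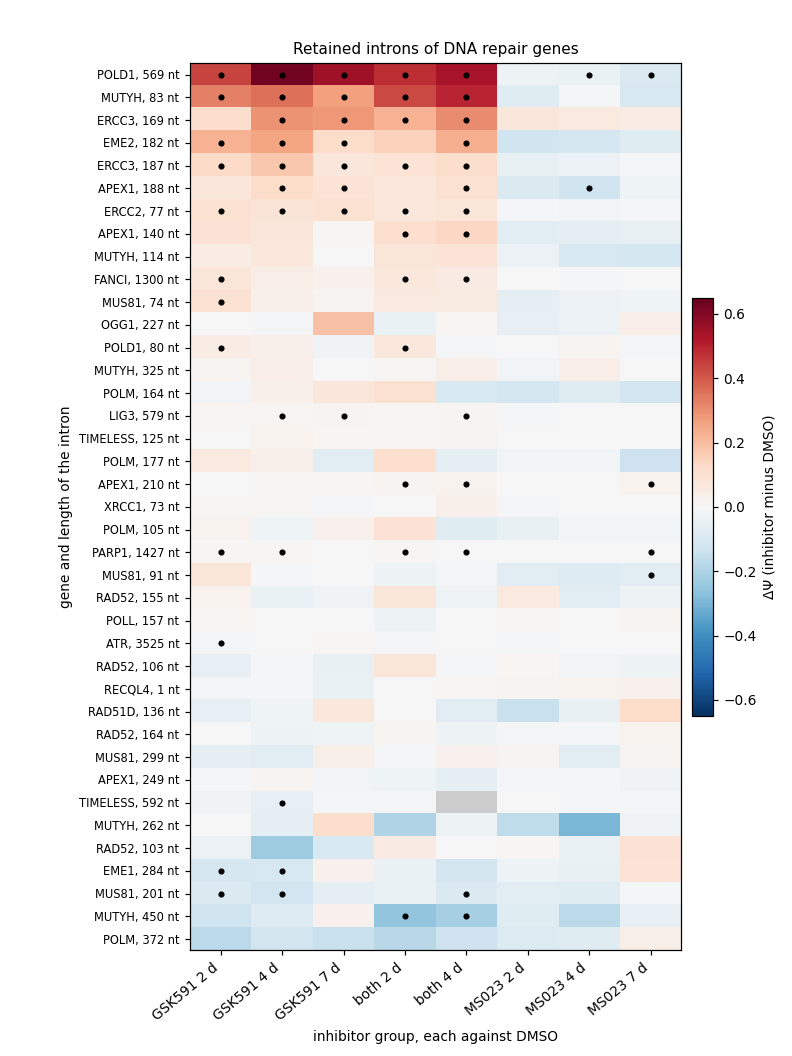
ΔΨ (inhibitor minus DMSO) of the 39 tested introns, ordered by their mean change with GSK591 and co-treatment, with gene and length on the vertical axis and the 8 comparisons on the horizontal axis. Dots mark introns called at an adjusted p under 0.05, and grey marks an intron not tested. POLD1 and MUTYH had the largest increases, and the 3 columns of MS023 hold 6 dots.

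Base excision repair and the mending of nicks held the largest changes. Of its 15 tested introns, 4, 5, and 4 were called higher with GSK591 at 2, 4, and 7 days and 0 lower, in POLD1, MUTYH, PARP1, LIG3, and APEX1, which is near the 24%, 33.9%, and 21.8% of all RI. With co-treatment 6 and 7 were called higher at 2 and 4 days (29.7% and 33.6% of all RI), and 1 was lower at each time.

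POLD1 encodes the catalytic subunit of DNA polymerase delta, which fills repair gaps and copies the lagging strand. Its 569-base intron had a Ψ of 0.179, 0.19, and 0.192 in the 3 DMSO libraries of 4 days. With GSK591 it had 0.599, 0.614, and 0.661 at 2 days, and 0.796, 0.829, and 0.812 at 4 days. Every GSK591 library was thus far above every DMSO library, with a ΔΨ of 0.437 at 2 days (adjusted p = 1.99e-10) and 0.625 at 4 days (adjusted p = 1.01e-14). At 7 days Ψ was 0.285, 0.212, and 0.256 with DMSO and 0.862, 0.803, and 0.747 with GSK591, a ΔΨ of 0.553 (adjusted p = 1.19e-10). Co-treatment gave 0.726, 0.612, and 0.661 at 2 days and 0.709, 0.711, and 0.753 at 4 days, with a ΔΨ of 0.479 and 0.537. These 5 calls held when any 1 library was left out. MS023 went the other way, with 0.169, 0.129, and 0.138 at 4 days, a ΔΨ of -0.042 (adjusted p = 0.0316), and 0.169, 0.133, and 0.169 at 7 days, a ΔΨ of -0.094 (adjusted p = 0.00018). The 4-day call was lost without any 1 library other than MS023 a (ΔΨ from -0.046 to -0.034 and adjusted p from 0.0528 to 0.186), and the 7-day call was kept without any of them. The DMSO libraries themselves differed between days, with Ψ higher by 0.064 at 7 than at 4 days (adjusted p = 0.0164). A further annotated gene, ENSG00000142539, spans the same intron on the same strand, and its reads cannot be told apart from those of POLD1. A second POLD1 intron, of 80 bases (chr19:50905382-50905461, intron 5 of 26), changed less. Its ΔΨ was 0.048 with GSK591 at 2 days (adjusted p = 0.0311) and 0.069 with co-treatment at 2 days (adjusted p = 0.000741), and it was not called in the other 6 comparisons. The first of these calls was lost without DMSO a, DMSO b, GSK591 b, or GSK591 c (adjusted p up to 0.202).

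MUTYH is the glycosylase that removes adenine paired with oxidised guanine. Its 83-base intron had a Ψ of 0.303, 0.197, and 0.335 with DMSO at 4 days. GSK591 gave 0.566, 0.58, and 0.679 at 2 days and 0.539, 0.703, and 0.662 at 4 days, all above the highest DMSO library. ΔΨ was 0.33 (adjusted p = 0.00339) and 0.356 (adjusted p = 0.000323). Co-treatment gave 0.706, 0.692, and 0.725 at 2 days and 0.773, 0.72, and 0.823 at 4 days, with a ΔΨ of 0.429 (adjusted p = 6.55e-05) and 0.494 (adjusted p = 4.22e-06). At 7 days the DMSO libraries had 0.425, 0.381, and 0.358 and those of GSK591 0.628, 0.482, and 0.858, a ΔΨ of 0.268 (adjusted p = 0.0359). That call was lost without any 1 library other than GSK591 b, and without GSK591 c the ΔΨ was 0.167. With MS023 ΔΨ was -0.08, -0.009, and -0.105 at 2, 4, and 7 days, and no call was made. Between 36 and 109 reads stood behind each of these values. A longer MUTYH intron of 450 bases went down in Ψ instead. It contains the 83-base intron, an exon of 42 bases, and a further exon next to that one. Reads inside the segment count for inclusion, so its Ψ does not measure retention alone. It was at 1 in all 3 DMSO libraries of 4 days and at 0.798, 0.666, and 0.761 with co-treatment at 2 days (ΔΨ -0.258, adjusted p = 0.0147), and at 0.816, 0.806, and 0.73 at 4 days (ΔΨ -0.216, adjusted p = 0.0195). The 2-day call was lost without DMSO c (adjusted p = 0.0549), and the 4-day call without DMSO b (0.0613) or DMSO c (adjusted p = 0.0694). The Ψ of the shorter and of the longer intron thus changed in opposite directions, and these introns overlap. The 42-base exon was also skipped more with co-treatment at 2 and 4 days (ΔΨ -0.529 and -0.349). This exon ends where the 83-base intron begins, so reads that skip it do not enter the skipping count of that intron. The Ψ of the 83-base intron is thus not a measure of retention alone. The part of the exon in the rise of the shorter intron and the fall of the longer one was not tested. An unnamed annotated gene, ENSG00000288208, covers the same stretch on the same strand.

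APEX1, the main endonuclease for sites that have lost a base, had an intron of 188 bases in its 5′ untranslated region (chr14:20923549-20923736, plus strand). A 249-base intron with the same 3′ end contains it, and the splice junction of that longer form does not enter its Ψ. The Ψ of the 188-base intron was high already in DMSO, at 0.886, 0.815, and 0.855 at 4 days. It was at 0.968, 0.972, and 0.965 with GSK591 at 4 days (ΔΨ 0.117, adjusted p = 0.000144) and at 0.985, 0.953, and 0.959 at 7 days (ΔΨ 0.087, adjusted p = 0.000263), when the DMSO libraries had 0.88, 0.886, and 0.87. Co-treatment at 4 days raised it by 0.099 (adjusted p = 0.00202). With MS023 at 4 days it was at 0.765, 0.678, and 0.724, below every DMSO library, a ΔΨ of -0.13 (adjusted p = 0.016). This last call was lost without DMSO a (ΔΨ -0.113), MS023 b (-0.108), or MS023 c (-0.131), at an adjusted p of up to 0.12, while those of GSK591 and co-treatment were kept without any 1 library. A second APEX1 intron of 140 bases (chr14:20923933-20924072) rose with co-treatment, by 0.107 at 2 days (adjusted p = 0.0285) and 0.134 at 4 days (adjusted p = 0.00619). The 2-day call was lost without DMSO a, DMSO b, co-treatment a, or co-treatment c (adjusted p up to 0.11). A 210-base form of that intron overlaps it. Its mean Ψ was 0.045 with GSK591 at 4 days, against 0.867 for the 140-base form. The 210-base form changed by 0.016 and 0.021 with co-treatment at 2 and 4 days and by 0.021 with MS023 at 7 days. It was called in all 3.

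LIG3, the ligase that works with XRCC1, and PARP1, which senses strand breaks, had introns with a low Ψ throughout. The LIG3 intron (579 bases, chr17:33325747-33326325) had a mean Ψ of 0.018 ± 0.001 (SD, n = 3) with DMSO and 0.033 ± 0.007 with GSK591 at 4 days (adjusted p = 0.0309), and was called also with GSK591 at 7 days (ΔΨ 0.016) and co-treatment at 4 days (ΔΨ 0.017). The GSK591 calls were lost without most single libraries. At 4 days these were any but GSK591 a (ΔΨ from 0.012 to 0.015, adjusted p up to 0.147), and at 7 days any but GSK591 b (ΔΨ 0.005 without GSK591 a, adjusted p up to 0.424). The co-treatment call was lost without co-treatment a (ΔΨ 0.013, adjusted p = 0.0968). The PARP1 intron (1427 bases, chr1:226553754-226555180) had a Ψ of 0.005, 0.008, and 0.007 with DMSO at 4 days and of 0.013, 0.022, and 0.018 with GSK591 at 2 days, a ΔΨ of 0.011 (adjusted p = 0.000438). It was called higher with GSK591 at 4 days and with co-treatment at both times, and lower with MS023 at 7 days (ΔΨ -0.004), a call lost without DMSO a, MS023 a, or MS023 b (ΔΨ -0.003 each). These differences, though called, were of at most 0.017 in Ψ. OGG1, the glycosylase for oxidised guanine, had 1 tested intron (227 bases) and XRCC1 had 1 (73 bases), and neither was called against DMSO.

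In nucleotide excision repair all 3 tested introns were in the helicases of TFIIH, the complex that unwinds DNA around a lesion and also opens promoters. All 3 were called higher in 4 of the 5 comparisons with GSK591 or co-treatment, 2 of 3 were in GSK591 at 2 days, and none was with MS023. Over all RI 21.8% to 33.9% were called higher in those 5 comparisons, and since 2 of the 3 are overlapping forms of 1 ERCC3 intron, they are not independent.

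The 187-base ERCC3 intron had a Ψ of 0.121, 0.162, and 0.176 with DMSO at 4 days. With GSK591 it had 0.28, 0.329, and 0.22 at 2 days and 0.316, 0.342, and 0.33 at 4 days, all above DMSO (ΔΨ 0.123, adjusted p = 0.00304, and ΔΨ 0.176, adjusted p = 3.1e-06). At 7 days it had 0.137, 0.11, and 0.096 with DMSO and 0.183, 0.184, and 0.199 with GSK591 (ΔΨ 0.075, adjusted p = 0.00154). Co-treatment raised it by 0.089 at 2 days and 0.112 at 4 days, the first of which was lost without DMSO a (ΔΨ 0.073) or co-treatment a (ΔΨ 0.058). A second form of this intron, of 169 bases, has its 3′ end further upstream and had a higher Ψ. It rose from 0.584, 0.622, and 0.719 with DMSO to 0.954, 0.905, and 0.939 with GSK591 at 4 days (ΔΨ 0.291, adjusted p = 5.28e-05), and by 0.281 at 7 days. With co-treatment it rose by 0.225 at 2 days and 0.306 at 4 days, and these 4 calls were kept without any 1 library. Both forms share their 5′ end and overlap, so they are not independent. Each Ψ is set against the splice junction of that form alone, so the higher level does not show more retention.

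ERCC2 had the same direction at a lower level. Its 77-base intron had a Ψ of 0.063, 0, and 0.01 with DMSO at 4 days and 0.126, 0.136, and 0.113 with GSK591 at 2 days (ΔΨ 0.101, adjusted p = 0.0145). At 4 days GSK591 gave 0.156, 0.107, and 0.059, of which the lowest lay within the DMSO range (ΔΨ 0.082, adjusted p = 0.0207). At 7 days it had 0.033, 0.017, and 0.018 with DMSO and 0.164, 0.074, and 0.129 with GSK591 (ΔΨ 0.1, adjusted p = 0.00319), and this was the ERCC2 call that was kept without any 1 library. Co-treatment gave a ΔΨ of 0.067 and 0.08 at 2 and 4 days. The other 4 calls were lost without DMSO b, and 3 of them without DMSO c. They were also lost without GSK591 b at 2 days, GSK591 a or GSK591 b at 4 days, and, for co-treatment, without co-treatment b or co-treatment c at 2 days (ΔΨ down to 0.037, adjusted p up to 0.371) and co-treatment a at 4 days.

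In homologous recombination introns were called in both directions with GSK591. Of 11 tested introns, 2 were called higher and 2 lower at 2 days (24% and 2.38% of all RI), and 1 higher and 2 lower at 4 days (33.9% and 4.32% of all RI). At 7 days 1 was higher (21.8% of all RI). Co-treatment gave 0 calls at 2 days and 1 in each direction at 4 days. Over all RI 29.7% and 33.6% were called higher with co-treatment at 2 and 4 days, and 5.03% and 6.1% lower.

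MUS81 is a nuclease that cuts branched DNA, and EME1 and EME2 are its alternative partners. The Ψ of the EME2 intron was high in DMSO, at 0.745, 0.643, and 0.785 at 4 days. With GSK591 it was higher, at 1, 0.96, and 0.893 at 2 days and 0.953, 1, and 0.981 at 4 days. ΔΨ was 0.227 (adjusted p = 0.0116) and 0.254 (adjusted p = 7.55e-05), and no GSK591 library overlapped DMSO. At 7 days ΔΨ was 0.117 (adjusted p = 0.0429), and with co-treatment at 4 days 0.236 (adjusted p = 0.000492). The 2-day call was lost without GSK591 b (ΔΨ 0.222, adjusted p = 0.0665) and the 7-day call without any 1 library other than GSK591 b (ΔΨ from 0.091 to 0.14, adjusted p up to 0.148). MS023 libraries lay below every DMSO library of the same comparison (0.597, 0.582, and 0.597 at 2 days), and ΔΨ was -0.132, -0.112, and -0.077 at 2, 4, and 7 days, none of which was called.

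The MUS81 intron of 201 bases had a lower Ψ with GSK591 at 2 and 4 days. A 299-base intron with the same 5′ end (chr11:65632287-65632585) contains it, and the splice junction of that longer form does not enter its Ψ. The Ψ of the 201-base intron was 0.278, 0.286, and 0.285 with DMSO at 4 days, 0.151, 0.22, and 0.195 with GSK591 at 2 days, and 0.2, 0.091, and 0.181 at 4 days. ΔΨ was -0.094 (adjusted p = 0.0179) and -0.125 (adjusted p = 0.00202), and all 6 GSK591 libraries were below DMSO. The MS023 libraries were below every DMSO library too, at 0.207, 0.232, and 0.21 at 2 days and 0.185, 0.243, and 0.179 at 4 days, with a ΔΨ of -0.067 (adjusted p = 0.187) and -0.081 (adjusted p = 0.0972), and no difference between GSK591 and MS023 was called at either time. Co-treatment at 2 days gave 0.247, 0.219, and 0.252, also below DMSO (ΔΨ -0.044, adjusted p = 0.305). With co-treatment at 4 days ΔΨ was -0.092 (adjusted p = 0.00953), and at 7 days with GSK591 it was -0.063 and not called (adjusted p = 0.328), with DMSO libraries spread from 0.165 to 0.36. The 2-day call was lost without DMSO b (adjusted p = 0.0506) or GSK591 a (adjusted p = 0.114), and that of co-treatment without co-treatment a (adjusted p = 0.0585). A neighbouring MUS81 intron of 74 bases (chr11:65632617-65632690) went the other way, with a ΔΨ of 0.098 with GSK591 at 2 days, and another of 91 bases (chr11:65633366-65633456) was lower with MS023 at 7 days (ΔΨ -0.072). The EME1 intron of 284 bases (chr17:48452874-48453157) was lower with GSK591 at 2 days, at 0.811, 0.834, and 0.899 against 0.935, 0.94, and 0.992 with DMSO (ΔΨ -0.108, adjusted p = 0.0294), and at 4 days (ΔΨ -0.104, adjusted p = 0.0485). Both calls were lost without any of 4 or 5 single libraries (adjusted p up to 0.242), and were kept without DMSO a or GSK591 c at 2 days and without DMSO b at 4 days. DMSO itself was lower at 7 than at 4 days (difference -0.139, adjusted p = 0.01). LRRC59 overlaps the EME1 segment on the opposite strand, and the libraries were stranded, but whether the counting used strand was not stated.

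**Figure D3:**
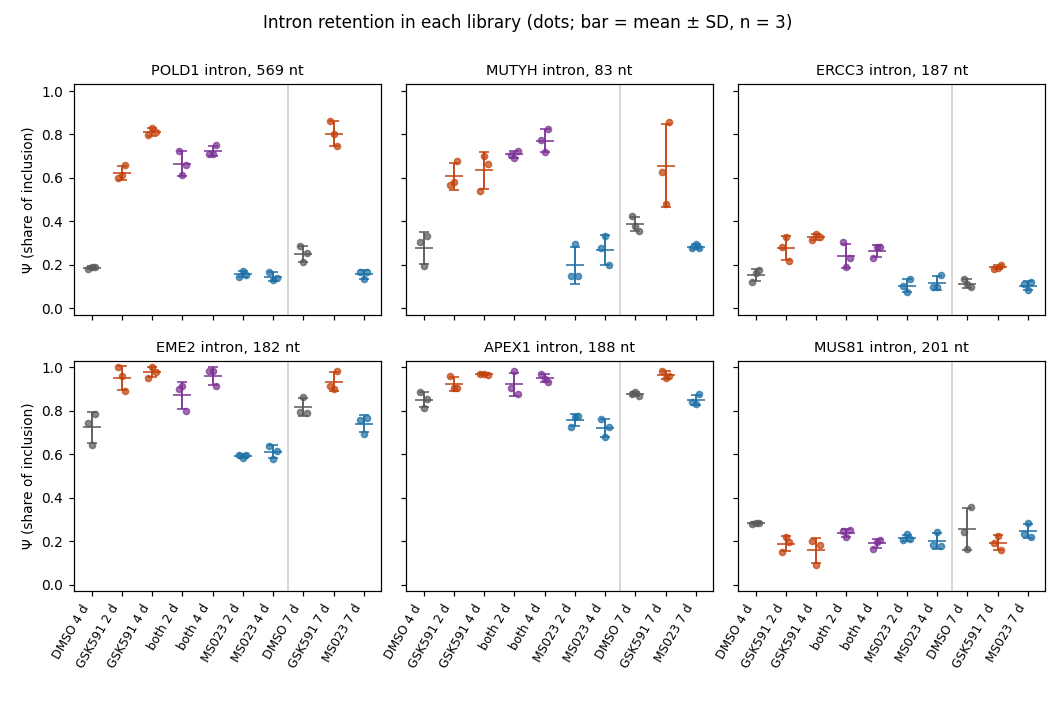
Ψ of 6 introns (vertical axis, 0 to 1) in each of the 3 libraries of the 10 groups (horizontal axis), with bars for the mean ± SD. The vertical line separates the libraries set against DMSO of 4 days from those of 7 days. GSK591 and co-treatment libraries of the POLD1 intron lie between 0.599 and 0.862, and all MS023 and DMSO libraries between 0.129 and 0.285, while in the MUS81 intron the libraries of all inhibitor groups at 2 and 4 days lie below DMSO.

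In the Fanconi anaemia pathway 1 intron was tested, in FANCI, which forms with FANCD2 the clamp that marks stalled forks. It had 1300 bases (chr15:89825067-89826366) and a Ψ of 0.162, 0.177, and 0.164 with DMSO at 4 days. GSK591 at 2 days gave 0.238, 0.265, and 0.236, all above DMSO (ΔΨ 0.079, adjusted p = 0.00109), and co-treatment gave a ΔΨ of 0.07 at 2 days (adjusted p = 0.002) and 0.055 at 4 days (adjusted p = 0.0369). The last of these was lost without DMSO a, DMSO c, co-treatment a, or co-treatment b (ΔΨ from 0.04 to 0.053, adjusted p up to 0.208). Between 993 and 1265 reads were counted on this event in the DMSO libraries of 4 days and between 113 and 131 with GSK591 at 7 days, when the DMSO libraries had 529 to 683. These counts were not normalized, and gene expression was not measured here. In damage signalling 3 introns were tested, and the calls were 1 intron of ATR, the kinase that senses single-stranded DNA (3525 bases, ΔΨ -0.015 with GSK591 at 2 days), and 1 of TIMELESS, which protects forks (592 bases, ΔΨ -0.054 with GSK591 at 4 days). Over all RI 2.38% were called lower with GSK591 at 2 days and 4.32% at 4 days. The 5 introns of the end-joining polymerases POLL and POLM, and the RECQL4 entry, were not called in any comparison with DMSO. The mismatch repair genes had no tested intron.

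Both inhibitors were also set directly against each other at matched dose and time. GSK591 exceeded MS023 in 13 of 38 introns at 2 days, 15 of 38 at 4 days, and 11 of 39 at 7 days, and was below it in 0, 0, and 2, while 35%, 45.7%, and 39.9% of all RI were called in either direction. For POLD1 the difference in Ψ was 0.469 at 2 days, 0.667 at 4 days (adjusted p = 7.05e-22), and 0.647 at 7 days (adjusted p = 4.8e-27). It was 0.41, 0.365, and 0.373 for MUTYH, 0.359, 0.366, and 0.194 for EME2, 0.172, 0.213, and 0.083 for ERCC3 (187 bases), and 0.166, 0.246, and 0.116 for APEX1 (188 bases), all of which were called. The MUS81 introns of 74 and 91 bases differed too, by 0.158 and 0.144 at 2 days. The introns below MS023 at 7 days were the RECQL4 entry (difference -0.073) and the 210-base APEX1 intron (difference -0.011).

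Few introns were called when MS023 was added to GSK591. At 2 days 0 of 39 were called between co-treatment and GSK591 alone (3.62% of all RI), and at 4 days 2 of 37 were (9.17% of all RI). These were the POLD1 intron, lower with co-treatment (difference -0.088, adjusted p = 0.0387), and the 210-base APEX1 intron, higher by 0.015 (adjusted p = 0.0163). Leaving out 1 library gave 1 call at 2 days without GSK591 a or GSK591 c, and at 4 days 1 call without GSK591 b, GSK591 c, or co-treatment c and 0 without co-treatment a. A p that misses the threshold does not show that the treatments act alike. DMSO at 7 against 4 days differed in 3 of 38 introns (8.89% of all RI), which were those of POLD1 and EME1 and the OGG1 intron (difference -0.165, adjusted p = 0.0467). The count was 0 without DMSO a of 7 days and 1 without DMSO c of 7 days.

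With GSK591 and co-treatment exons of repair genes were called at shares near those of the tables, and most of the called ones were skipped more. GSK591 alone gave 80 of 797 skipped-exon (SE) events called at 2 days, 86 of 785 at 4 days, and 63 of 648 at 7 days, against 7.16%, 10.6%, and 8.55% of all SE in the tables. With co-treatment 133 of 835 were called at 2 days and 124 of 764 at 4 days (13.8% and 14.6% of all SE), and with MS023 15 of 838, 12 of 815, and 17 of 703 at 2, 4, and 7 days (3.67%, 4.28%, and 4.95%). With limma on log2 odds the counts were 0, 20, and 5 with GSK591 at 2, 4, and 7 days, 55 and 51 with co-treatment, and 0 with MS023 at each time. At 2 days with GSK591, where limma called 0, 145 events had an unadjusted p under 0.05 in limma and 180 in the quasi-binomial model. Of the called events 74 of 80, 79 of 86, and 51 of 63 had a lower Ψ with GSK591, and 120 of 133 and 103 of 124 with co-treatment, while for all SE listed it was 4479 of 5508, 6452 of 8470, 3493 of 6020, 9295 of 11180, and 8508 of 11736. Several events can describe 1 exon, and 179 of 728 distinct exons tested, in 41 genes, were called in at least 1 comparison. That count is not given here over all exons. The counts of called SE events rest on few libraries. Without any 1 library the GSK591 count was 40 to 53 at 2 days and 26 to 41 at 7 days, at 4 days it was 54 to 57 without a GSK591 library, and that of co-treatment was 63 to 88 at 2 days without DMSO c or any co-treatment library and 64 to 82 at 4 days without DMSO b, co-treatment a, or co-treatment c. With MS023 it fell to between 1 and 9 at 2 days without any library but DMSO a, to between 3 and 7 at 4 days without any but DMSO c, and to between 2 and 4 at 7 days without any 1 library. By role, base excision repair had 15, 30, and 24 called events with GSK591, of 164, 162, and 137 tested, and nucleotide excision repair 10, 9, and 8 of 53, 57, and 58. Homologous recombination had 21, 18, and 13 of 158, 159, and 132, the Fanconi anaemia pathway 17, 13, and 8 of 143, 134, and 99, and mismatch repair 9, 6, and 2 of 81, 78, and 59. Damage signalling had 6, 7, and 4 of 102, 94, and 82, the RecQ helicases 2 of 46, 43, and 34, and the end-joining polymerases 0, 1, and 2 of 50, 58, and 47.

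RAD52, which anneals single strands, held the exon with the largest change, of 122 bases (chr12:1023577-1023698, minus strand), annotated in a noncoding transcript. Its Ψ was 0.728, 0.781, and 0.874 with DMSO at 4 days, 0.319, 0.333, and 0.344 with GSK591 at 2 days, and 0.268, 0.158, and 0.283 at 4 days. ΔΨ was -0.463 (adjusted p = 8.94e-05) and -0.558 (adjusted p = 3.67e-07). Co-treatment gave 0.171, 0.144, and 0.052 at 2 days (ΔΨ -0.672, adjusted p = 1.77e-10) and 0.152, 0.194, and 0.174 at 4 days (ΔΨ -0.621, adjusted p = 5.11e-09), and these 4 calls were kept without any 1 library. MS023 also lowered it at 2 days, to 0.641, 0.332, and 0.391 (ΔΨ -0.34, adjusted p = 0.0121), a call lost without DMSO b, DMSO c, MS023 b, or MS023 c (ΔΨ from -0.347 to -0.279, adjusted p up to 0.299). At 7 days nothing was called, and the DMSO libraries were at 0.305, 0.407, and 0.579, a difference of -0.364 from those of 4 days (adjusted p = 0.00947), while those of GSK591 were at 0.459, 0.216, and 0.579. The control thus moved between days about as far as the MS023 group at 2 days. It moved less than the GSK591 and co-treatment groups at 2 and 4 days. Between 26 and 77 reads stood behind each value. Between DMSO at 7 and 4 days 14 of 620 SE events of repair genes were called (3.06% of all SE).

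The POLD1 exon that follows the retained intron, exon 23 of 27 with 133 bases (chr19:50919653-50919785), was skipped more as well. Its Ψ was 0.983, 0.971, and 0.986 with DMSO at 4 days and 0.679, 0.923, and 0.762 with GSK591 at 4 days (ΔΨ -0.192, adjusted p = 2.8e-09). At 7 days it was 0.98, 0.948, and 0.968 with DMSO and 0.507, 0.79, and 0.758 with GSK591 (ΔΨ -0.281, adjusted p = 1.35e-13), and ΔΨ was -0.116 at 2 days. These calls were kept without any 1 library. Co-treatment gave -0.05 and -0.085 at 2 and 4 days, which were lost without co-treatment b (ΔΨ -0.049 and -0.053) and, at 4 days, without co-treatment a (ΔΨ -0.079). Between 904 and 980 reads stood behind the DMSO values of 4 days and between 53 and 83 behind those of GSK591 at 7 days, when the DMSO libraries had 370 to 500. The exon abuts the retained intron, and its part in the result was not tested.

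EME1 skipped an exon of 187 bases (chr17:48453158-48453344) that abuts its named intron. Its Ψ was 1, 0.986, and 0.987 with DMSO at 4 days and 0.616, 0.88, and 0.7 with GSK591 at 4 days (ΔΨ -0.259, adjusted p = 1.31e-05). It was the repair-gene exon named here that was called in most comparisons. LRRC59 overlaps this exon on the opposite strand, and whether the counting used strand was not stated. The exon is annotated in the 3′ untranslated region of a transcript classed under nonsense-mediated decay. ΔΨ was -0.119 and -0.253 with GSK591 at 2 and 7 days, -0.312 and -0.281 with co-treatment at 2 and 4 days, and -0.134 and -0.151 with MS023 at 2 and 4 days. The calls of GSK591 at 4 days and co-treatment at 2 days were kept without any 1 library. The others were lost without GSK591 b at 2 days (adjusted p = 0.0526), without any library but DMSO c at 7 days (adjusted p up to 0.145), without co-treatment c at 4 days (adjusted p = 0.054), and for MS023 without MS023 a at 2 and 4 days or MS023 c at 2 days (adjusted p up to 0.144).

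In the remaining named exons the lowest mean Ψ was that of co-treatment at 2 or 4 days, apart from EXO1. The 42-base MUTYH exon, a whole number of codons, had a Ψ of 0.903, 0.958, and 1 with DMSO at 4 days and 0.637, 0.267, and 0.369 with co-treatment at 2 days (ΔΨ -0.529, adjusted p = 3.65e-07). Co-treatment at 4 days gave -0.349. GSK591 at 4 days gave -0.258, which was lost without DMSO b, DMSO c, GSK591 b, or GSK591 c (adjusted p up to 0.166). MSH5, a mismatch repair homologue known for its part in meiosis, had an exon of 88 bases (chr6:31726310-31726397, also in the annotated read-through gene MSH5-SAPCD1). Its Ψ was 0.943, 0.921, and 0.805 with DMSO, and 0.446, 0.428, and 0.267 with co-treatment at 2 days (ΔΨ -0.509, adjusted p = 2.14e-08). Co-treatment at 4 days gave a ΔΨ of -0.45. GSK591 at 4 days gave -0.311, which was lost without GSK591 a (adjusted p = 0.0748) or GSK591 b (adjusted p = 0.0628). POLL, an end-joining polymerase, had an exon of 119 bases (chr10:103344359-103344477) at 0.778, 0.536, and 0.725 with DMSO and 0.331, 0.423, and 0.343 with co-treatment at 4 days (ΔΨ -0.314, adjusted p = 0.000353). It was also called with co-treatment at 2 days (ΔΨ -0.247) and GSK591 at 7 days (ΔΨ -0.293). Those calls were lost without any library but DMSO b at 2 days (ΔΨ -0.198 without DMSO a, adjusted p up to 0.127) and without any DMSO library or GSK591 b at 7 days (adjusted p up to 0.105). DPCD overlaps this exon on the opposite strand.

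CHEK2, a kinase that relays signals of double-strand breaks, had an exon of 62 bases (chr22:29099493-29099554, exon 9 of 16) at 0.772, 0.774, and 0.729 with DMSO at 4 days and 0.539, 0.461, and 0.381 with co-treatment at 2 days (ΔΨ -0.298, adjusted p = 4.24e-05). With GSK591 it was called at 7 days alone, at 0.688, 0.692, and 0.67 against 0.847, 0.723, and 0.911 (ΔΨ -0.144, adjusted p = 0.0189), and that call was lost without any library but DMSO b (adjusted p up to 0.322). EXO1, an exonuclease of mismatch repair and of break resection, had an exon of 115 bases (chr1:242016660-242016774) at 1, 0.958, and 1 with DMSO and 0.65, 0.738, and 0.653 with GSK591 at 2 days (ΔΨ -0.306, adjusted p = 0.00671). Co-treatment at 2 days gave a ΔΨ of -0.216 (adjusted p = 0.0136). The first call was lost without GSK591 c (adjusted p = 0.0506), the second without DMSO a, DMSO c, co-treatment b, or co-treatment c (adjusted p up to 0.0926), and as few as 24 reads stood behind a value.

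**Figure D4:**
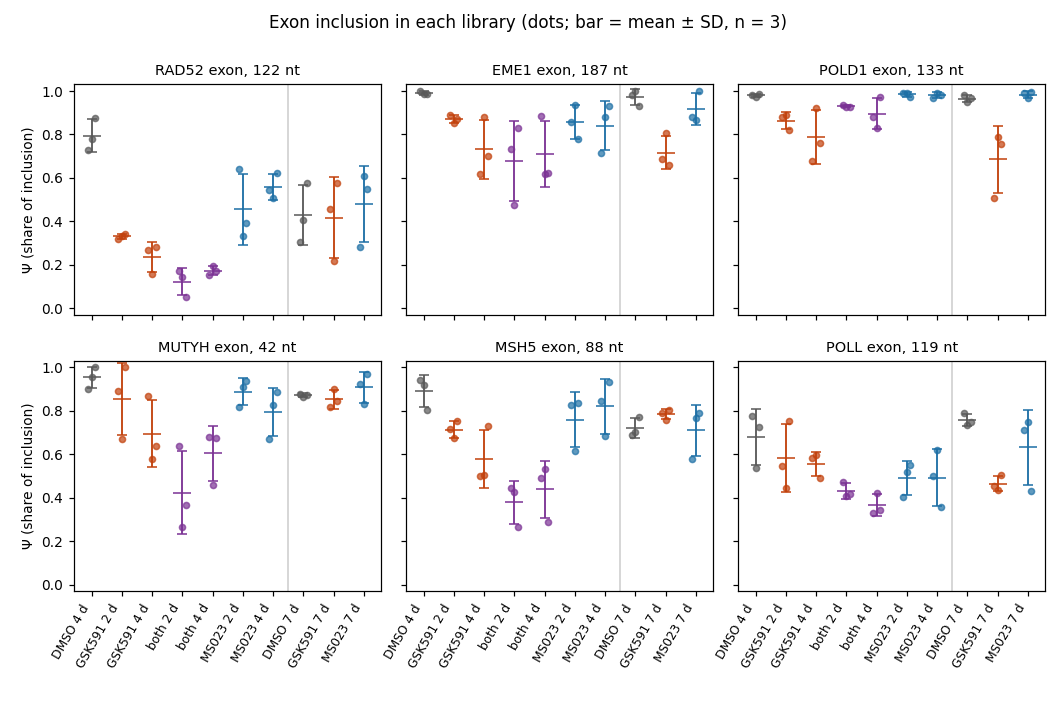
Ψ of 6 exons (vertical axis, 0 to 1) in each of the 3 libraries of the 10 groups (horizontal axis), with bars for the mean ± SD. The RAD52 exon lies between 0.728 and 0.874 in DMSO at 4 days, between 0.305 and 0.579 in DMSO at 7 days, and between 0.052 and 0.194 with co-treatment.

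Between co-treatment and GSK591 alone 24 of 599 SE events of repair genes were called at 2 days and 17 of 536 at 4 days (5.6% and 6.92% of all SE). At 2 days the Ψ of co-treatment minus that of GSK591 was -0.43 for the MUTYH exon (adjusted p = 0.0018), -0.365 for CHEK2 (adjusted p = 4.25e-08), -0.334 for MSH5 (adjusted p = 0.00249), -0.21 for RAD52 (adjusted p = 0.0124), and -0.192 for EME1 (adjusted p = 0.0144). None of these exons was called between both groups at 4 days. Between GSK591 and MS023 76 of 580, 101 of 572, and 55 of 470 events were called at 2, 4, and 7 days (11.8%, 16.3%, and 14.1% of all SE). The Ψ of GSK591 minus that of MS023 was -0.121, -0.193, and -0.298 in the POLD1 exon (adjusted p = 1.37e-17 at 7 days), and -0.321 and -0.243 in the RAD52 and MSH5 exons at 4 days.

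Alternative splice sites and mutually exclusive exons (A3SS, A5SS, and MXE) were called at shares of the same order as in the tables. With GSK591 22 of 425, 45 of 427, and 27 of 330 such events of repair genes were called at 2, 4, and 7 days (4.28%, 9.58%, and 7.25% of all), with co-treatment 53 of 427 and 52 of 425 at 2 and 4 days (9.82% and 12%), and with MS023 6 of 462, 4 of 447, and 7 of 382 (1.6%, 1.99%, and 3.32%). In MSH5 a pair of 3′ splice sites lies 51 bases apart (exon chr6:31711916-31712076 in its longer form). The upstream site had a share of 0.127, 0.141, and 0.068 with DMSO at 4 days and 0.713, 0.539, and 1 with GSK591 at 4 days (ΔΨ 0.639, adjusted p = 1.89e-05), and was called in all 5 comparisons with GSK591 or co-treatment. Only 11 to 18 reads stood behind the GSK591 values. An MXE event of MSH5 that lies just upstream had a ΔΨ of 0.475 with GSK591 at 4 days (adjusted p = 0.000221). An MXE event of MUTYH had a ΔΨ of -0.596 with co-treatment at 4 days (adjusted p = 0.00369). MXE calls have a limit here, as 4172 of 18379 MXE events (22.7%) were called between DMSO at 7 and 4 days.

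A list of 95 other repair genes, which are not members, held 19 to 22 tested introns in 14 to 16 genes. Of these 7 of 21, 9 of 20, and 7 of 20 were called higher with GSK591 at 2, 4, and 7 days (24%, 33.9%, and 21.8% of all RI) and 0 lower, and 9 of 20 and 9 of 19 with co-treatment at 2 and 4 days (29.7% and 33.6% of all RI) and 1 and 0 lower. With MS023 1, 0, and 0 were called higher and 2, 3, and 4 lower at 2, 4, and 7 days (4.21%, 5.6%, and 9.49% of all RI lower). In SLX4, a scaffold for nucleases that include MUS81, an intron of 926 bases (chr16:3651193-3652118) had a ΔΨ of 0.158 with GSK591 at 4 days (adjusted p = 0.00709).

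Over all 53 genes, 45 had at least 1 event of any type called against DMSO. The same count over all genes of the series is not given here, so it does not set repair genes apart. Events of BLM, BRCA2, PMS2, TP53BP1, UNG, XPC, and XRCC1 were tested and none was called, which does not show that they did not change.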

How the data were processed

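Poly(A)-RNA seq of 30 A549 libraries was analysed. The controls in the tables are DMSO at 4 and 7 days. The libraries with and without actinomycin D, which include poly(A) DMSO libraries of 2 days, and the SKaTER-seq libraries are in none of the tables and were not analysed here. Per the labels, reads were trimmed with Trim Galore 0.6.5 and aligned to hg19 with STAR 2.4.2a, and the authors compared every treatment with its control in rMATS. The 8 deposited tables hold counts of inclusion and skipping reads for each event in each library, as whole numbers without normalization, and the inclusion counts take in reads inside the segment. The deposited tables also hold effective lengths, Ψ, and the authors' own differences and FDR, which were not used. All columns of per-sample counts were used.

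Ψ was computed as (I/l_I)/((I/l_I)+(S/l_S)), where I and S are the counts and l the effective lengths, and ΔΨ as inhibitor minus DMSO. Events with at least 10 reads in every library and both forms seen were tested in R 4.3.3 with a quasi-binomial logistic model, whose dispersion was moderated with squeezeVar of limma 3.58.1 with a floor of 1. Groups were compared by an F test. P-values were adjusted by Benjamini-Hochberg within event type and comparison over all genes. The test had been planned for junction counts, and was applied to the counts as deposited. It was run on simulated RI counts with the same dispersion for every intron of a comparison. The outcome is not given here. Other event types were not simulated, so the run does not bear on their calls.

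The genes, role lists, and tests were chosen with earlier results of these data known. The introns named are at most 16 called in at least 2 of the 8 comparisons with DMSO, with the largest absolute ΔΨ and at most 2 per gene. The exons named are at most 8, with 1 per gene, and at most 4 other events and 3 introns of other repair genes were added. Where events shared a segment, the one with the most DMSO reads stood for it. Some events and 1 sequence that this rule selects are not reported here. Introns named outside that rule were chosen after their values were seen. An interaction of inhibitor and time, for 7 against 4 days, was added after seeing the data. Alternatives were limma on log2 odds with 0.5 added to each count, minima of 20 or 1 reads, an absolute ΔΨ of at least 0.05, adjustment over all event types, 1 event per segment, and leaving out each library in turn. Positions and sequences are from GRCh37 with its GENCODE annotation; 99.43% of 4911 RI had canonical ends there, against 0.55% after a shift of 7 bases.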

Additional observations from a re-analysis of the deposited data

Results flagged for a closer look

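For 4 exon events of repair genes the effect of GSK591 differed between 7 and 4 days by an interaction term in the same model, with Benjamini-Hochberg adjustment over all events and limma moderation. The 122-base RAD52 exon fell at 4 days (ΔΨ -0.558) and not at 7 days (ΔΨ -0.013, adjusted p of the difference 0.0225). An overlapping RAD52 exon of 102 bases (chr12:1023597-1023698), which shares its reads, had a ΔΨ of -0.464 and -0.046 (adjusted p = 0.0271). In both the DMSO libraries enter the difference, and for the 122-base exon their Ψ at 7 minus that at 4 days was -0.364 (adjusted p = 0.00947). An EME2 exon of 660 bases (chr16:1826747-1827406), over which SPSB3 lies on the opposite strand, had a ΔΨ of 0.049 at 4 days and -0.134 at 7 days (adjusted p = 0.00171). An exon of LIG1, the ligase that seals nicks in replication and repair (chr19:48637238-48637323), had a ΔΨ of -0.154 and -0.029 (adjusted p = 0.0175). They were 4 of 520 SE events of repair genes tested in this way for GSK591, where 1.55% of all SE were called, and 0 of 39 introns, where 6.23% of all RI were. For MS023 0 of 39 introns and 0 of 555 exon events were called.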

How the results depend on the processing

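No paired analysis was possible because the columns of the tables carry no replicate numbers. For the 86 called values of the named introns and exons, the alternatives run were limma on log2 odds, no effective length, and leaving out 1 library. Under these 0 reversed, but the values had been chosen as called and for a large ΔΨ, so a reversal was unlikely. Of them 33 of 56 intron values and 15 of 30 exon values stayed called without any 1 library. With limma on log2 odds 40 of the 86 stayed called. Without division by effective length all 86 kept their direction, but the test was not rerun. That direction is nearly fixed in advance, as the same counts are used. The counts below are of called events in repair genes, and the cause of these changes was not tested.

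With limma on log2 odds the RI counts were 3 with GSK591 at 2 days, 6 and 9 with co-treatment at 2 and 4 days, 0 with MS023 at 4 and 7 days, 0 for co-treatment against GSK591 at 4 days, and 0 for DMSO at 7 against 4 days, and the SE counts were 0, 20, and 5 with GSK591 at 2, 4, and 7 days, 55 and 51 with co-treatment, and 0, 0, and 0 with MS023. Adjustment over all 5 event types gave 5 RI with GSK591 at 7 days. With 1 event per segment the SE counts were 52 with GSK591 at 2 days and 87 and 77 with co-treatment. With an absolute ΔΨ of at least 0.05, MS023 gave 1 and 2 RI at 4 and 7 days and 10 SE at 7 days.

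Leaving out 1 library gave RI counts of 5 to 8 with GSK591 at 7 days, 0 to 2 with MS023 at 2 days, 0 to 2 at 4 days, and 2 to 4 at 7 days, 0 to 1 and 0 to 2 for co-treatment against GSK591 at 2 and 4 days, and 0 to 3 for DMSO at 7 against 4 days. SE counts were 40 to 53, 54 to 73, and 26 to 41 with GSK591 at 2, 4, and 7 days, 63 to 97 and 64 to 94 with co-treatment at 2 and 4 days, and 1 to 15, 3 to 11, and 2 to 4 with MS023 at 2, 4, and 7 days. The counts of GSK591 against MS023 stayed within 1.5 times under every alternative. Minima of 20 or 1 reads moved no count past that. Values with under 50 reads, as for the exons of RAD52, EXO1, and EME1, are coarse.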
